A study of Mus musculus with 2 samples.

Results

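C1q-high macrophages with transcripts of Mmp12, Mgl2 or Ccl8 were examined in liver metastases of a mouse colorectal cancer line. The cells were chosen by their own UMI counts (a UMI marks 1 captured transcript). A cell needed at least 30 C1qa, C1qb and C1qc UMIs together per 10000 UMIs and at least 1 UMI of Mmp12, Mgl2 or Ccl8. Cells with at least 2 of Nos2, Il1a, Ptgs2 and Inhba were left out. Any UMI of Cd3e, Cd79a, Flt3, Clec4f or Ltc4s also left a cell out, as did S100a8 and S100a9 together at 30 or more per 10000 UMIs, or 3 or more UMIs of Mki67, Top2a, Birc5, Pclaf and Cdk1. This rule kept 929 of the 19999 cells that passed the quality limits, 452 in Ctrl and 477 in KD.

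The cells came from C57BL/6 mice of 6 to 8 weeks that received MC38-LM3b cells into the spleen, a line derived from MC38 colon cancer cells by repeated selection for liver metastasis. The tumor cells carried a scrambled hairpin (shScramble, Ctrl) or a hairpin against SLAMF3 (shSLAMF3, KD), whose mouse gene is Ly9. The macrophages belonged to the host and carried no hairpin by design. After 2 weeks, metastatic tissue of 3 mice was pooled for each library and CD45+ cells were isolated, so each group was 1 library and no difference between Ctrl and KD has a replicate check. The knockdown line was made with a single hairpin, and the effect of the hairpin and differences between the 2 pools of mice cannot be told apart.

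C1q is the recognition molecule of the classical complement pathway, built from the products of C1qa, C1qb and C1qc, and in tumors its transcripts mark a class of tumor-associated macrophages (TAMs) that present antigen and clear dying cells. Mmp12 encodes macrophage elastase, which cleaves elastin. Mgl2 encodes a lectin that binds galactose-type sugars and is a marker of macrophages and dendritic cells under IL-4. Ccl8 encodes a chemokine that attracts monocytes and T cells. The comparison asked whether the silencing of SLAMF3 in the tumor cells went along with a different number or a different expression program of these host cells.

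The libraries held 67207234 UMIs over 10416 barcodes (Ctrl) and 64444715 UMIs over 10943 barcodes (KD), and 27 barcodes occurred in both, of which none was a member in both. The members had 3376805 UMIs in Ctrl and 4431773 in KD. A member held a median of 6834 UMIs in Ctrl (514 to 21181) and 9204 in KD (740 to 24188). Over all filtered cells the order was the other way, with medians of 5412 UMIs in Ctrl and 4989 in KD. Levels are given as CPM, a gene's UMIs scaled to the same total in both libraries. Intervals are 95% intervals and cover counting error only, since cells of 1 library are not replicates.

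The macrophage label held against an independent list. All 14 macrophage genes had UMIs in both libraries and were summed to 14262 CPM in Ctrl and 18108 CPM in KD, against 588 and 848 CPM in cells with a Cd3e UMI (T cells). Csf1r, the receptor for the macrophage growth factor, stood at 188 CPM in Ctrl and 212 CPM in KD, and the lysosomal protein Cd68 at 269 and 259 CPM. Adgre1, which encodes F4/80, stood at 180 and 136 CPM. Clec4f, the defining Kupffer cell gene, was 0 by rule. Vsig4, another Kupffer cell gene, had 0 UMIs in Ctrl, which allows up to 0.888 CPM, and 22 in KD. Of the 10 genes of the Kupffer list, however, only 2 were without UMIs in Ctrl and 1 in KD. Marco had 57 UMIs in Ctrl and 108 in KD, and Cd5l 44 and 58. A UMI of the list was found in 28.5% of Ctrl and 38.2% of KD members.

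Few cells lay at the C1q limit and many at the marker limit. With every other condition met, 16 Ctrl and 29 KD cells had 20 to 30 C1q UMIs per 10000, just outside the limit, and 38 and 32 cells had 30 to 40, just inside. The member median was 105.5 per 10000 in Ctrl and 104 in KD. In contrast, 151 Ctrl members (33.4%) and 118 KD members (24.7%) were admitted by a single marker UMI, and 748 Ctrl and 571 KD cells met every other condition with none. Of the inflammatory genes, 246 Ctrl and 221 KD members had 1 detected, and 161 and 86 otherwise eligible cells had 2.

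The member share of all cells was close between the libraries, and their share of C1q-high cells was higher in KD. Of 9814 filtered Ctrl cells, 4.61% were members (interval 4.20 to 5.04), and of 10185 filtered KD cells 4.68% were (4.28 to 5.11). The shares differed by 0.0777 points (−0.514 to 0.668). Of the cells past the C1q limit, they were 19.2% of 2359 in Ctrl and 25.6% of 1863 in KD, a difference of 6.44 points (3.88 to 9.02). With each cell thinned to 1500 UMIs before the rule was applied, that difference was 2.96 points (0.347 to 5.58). Without members that held a UMI of a dendritic, endothelial or neutrophil marker, which was added after seeing the data, 258 Ctrl and 137 KD members were left. They were 10.9% and 7.35% of all C1q-high cells, and 18.7% and 26.9% of the C1q-high cells left by the same exclusion. The neighbouring C1q-high sets differed as well. Inflammatory C1q-high cells, those with 2 or more of the 4 inflammatory genes, were 22.5% (530 cells) of C1q-high cells in Ctrl and 10.8% (202 cells) in KD, and cycling ones were 11.8% and 3.97%. Cells with Ltc4s, a leukotriene synthase gene, were 1.19% in Ctrl and 10.1% in KD. C1q-high cells without a marker UMI were 31.7% and 30.7%.

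**Figure D1:**
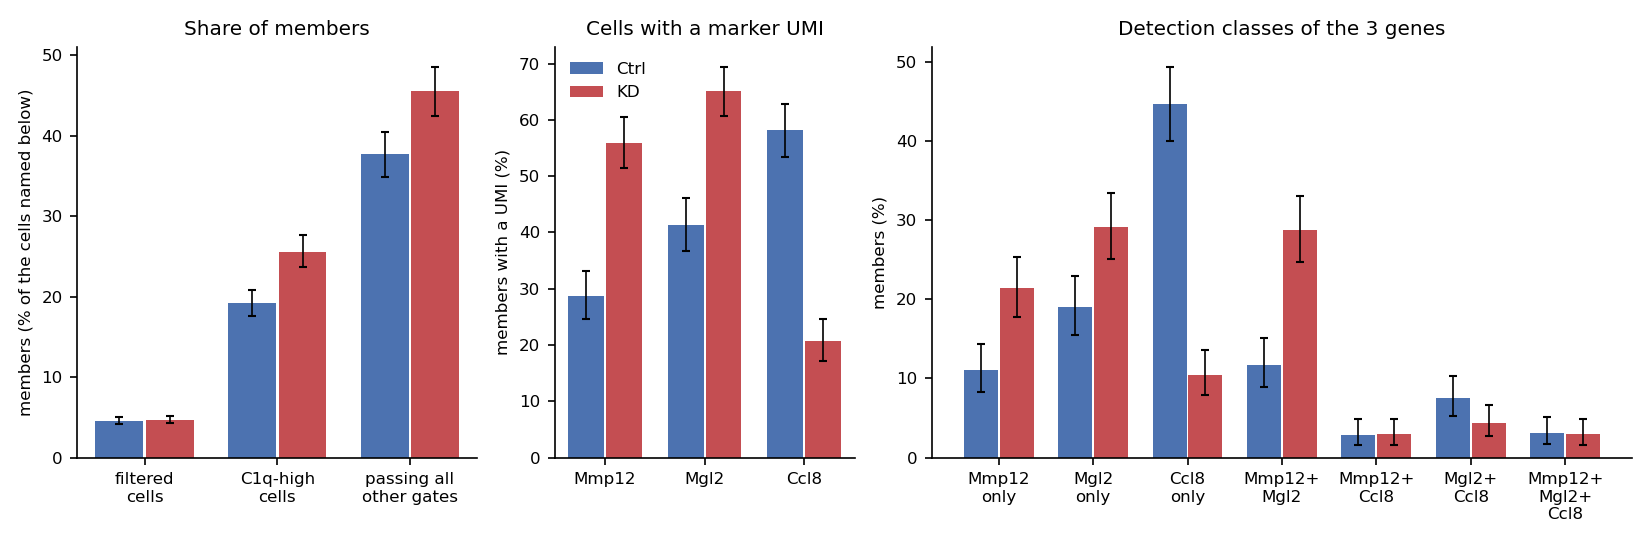
Shares of cells in Ctrl and KD with 95% Clopper-Pearson intervals, which cover counting error only; the y axes are in percent. The panels give the members over 3 denominators, the members with a UMI of each marker, and the 7 combinations of detected markers; Ccl8 alone is found in 44.7% of Ctrl and 10.5% of KD members.

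Within the members, the mix of the admitting genes turned over between the libraries. These genes chose the cells, so their values are a description. Ccl8 was detected in 58.2% of Ctrl members and 20.8% of KD members, a difference of −37.4 points (−43.2 to −31.3), with 2461 UMIs in Ctrl and 896 in KD. Mmp12 was detected in 28.8% and 56.0% (847 and 2488 UMIs), and Mgl2 in 41.4% and 65.2% (526 and 1123 UMIs). Ccl8 was thus the most frequent of the 3 genes in Ctrl and the least frequent in KD. Members with Ccl8 alone were 202 in Ctrl (44.7%) and 50 in KD (10.5%), and members with Mmp12 and Mgl2 but no Ccl8 were 53 (11.7%) and 137 (28.7%). All 3 genes were found together in 14 cells of each library.

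The pattern was also there at equal depth. Every member was chosen for a UMI of these genes, so shares above those in T cells were set by the rule. Among the members thinned to 1500 UMIs (431 in Ctrl and 466 in KD, with 21 and 11 shallower cells left out), Ccl8 was detected in 34.3% of Ctrl and 10.5% of KD cells. Mmp12 was detected in 16.2% and 30.5%, and Mgl2 in 16.5% and 24.2%. In T cells, which should lack these transcripts, the thinned shares were at most 0.893%, at median depths of 7112 UMIs in Ctrl and 5803 in KD. Without thinning they were at most 3.37% (Ccl8 in Ctrl). Other cells showed the same directions. In thinned cycling C1q-high cells, Ccl8 was detected in 19.9% (Ctrl) and 5.48% (KD) and Mmp12 in 3.25% and 17.8%. In thinned inflammatory cells, Ccl8 was detected in 10.7% and 8.50% and Mmp12 in 8.59% and 15.5%. The log2 ratios in T cells were −3.29 for Ccl8 (117 and 6 UMIs) and 1.79 for Mmp12 (117 and 203 UMIs). The UMIs were uneven among cells. The 10% of members with most Ccl8 held 74.0% of its UMIs in Ctrl and 93.0% in KD, and 1 Ctrl cell had 199 Ccl8 UMIs.

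Mmp12 and Mgl2 tended to occur in the same cells. To see this without the condition of at least 1 marker UMI, the members and the cells without a marker UMI were thinned and pooled (1126 Ctrl and 1005 KD cells). Both genes were found in 18 Ctrl cells, where unrelated detection gives 4.41, and in 34 KD cells, where it gives 15.97. Mmp12 and Ccl8 met in 4 Ctrl cells (9.20 if unrelated) and 7 KD cells (6.92). Mgl2 and Ccl8 met in 5 (9.33) and 7 (5.51). The 2 libraries therefore shared the direction for the first pair and not for the other two.

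The UMI counts of the members were summed in each library and compared gene by gene. Of 7027 genes with at least 100 UMIs over both libraries, 70 (0.996%) were more than 2-fold higher in KD and 65 (0.925%) more than 2-fold lower, and the median log2 ratio over all of them was −0.018. The whole interval lay above 0 for 998 genes (14.2%) and below 0 for 1234 (17.6%). A gene past 2-fold is called higher or lower below, which is a size and not a test. The leading higher genes included secreted products of monocytes and macrophages (Ear2, F13a1, Ccl24, F10, Fn1 and Ccl9). The leading lower genes included Ccl8, Il10, Nos2 and the interferon-induced Socs1.

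Among the higher genes, Ear2 showed the highest ratio. It encodes a ribonuclease of the eosinophil cationic protein family, a family of near copies, and it had 28 UMIs in 11 Ctrl members and 444 UMIs in 98 KD members, a log2 ratio of 3.59 (3.04 to 4.20). F13a1, the A subunit of clotting factor XIII, had 46 and 440 UMIs (2.87, 2.43 to 3.34). The eosinophil-attracting chemokine gene Ccl24 had 144 UMIs in 24 Ctrl cells and 728 in 89 KD cells (1.95, 1.69 to 2.21). Fn1, fibronectin, had 202 and 892 UMIs (1.75), and Ccl9, a chemokine for CCR1, had 376 and 1568 UMIs (1.67). The partner genes Tmem176a and Tmem176b, which encode membrane proteins of myeloid cells, had log2 ratios of 2.40 and 1.99. The others among the 10 highest were Marchf3, a ubiquitin ligase gene (2.07), Ahnak, a large scaffold protein gene (1.97), and F10, clotting factor X (1.76).

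These higher values were not confined to the members. In C1q-high cells without a marker UMI, the ratios of the 10 genes ran from 0.60 (Marchf3) to 4.28 (Ccl24), and 9 of them were past 2-fold. In T cells, Ear2 (2.55), Tmem176a (2.04), Tmem176b (1.93), Ccl24 (2.93), Fn1 (1.40) and Ccl9 (1.27) were past 2-fold too, whereas F13a1 (0.46), Marchf3 (0.48), Ahnak (0.29) and F10 (0.25) were not. The shares of all genes past 2-fold in these other cells are not given here. Marchf3 stood out in size. Its log2 ratio of 2.07 in the members (1.81 to 2.33) lay beside 0.60 (0.30 to 0.89) in cells without a marker UMI and 0.83 (0.51 to 1.14) in inflammatory cells.

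Among the lower genes, Ccl8 itself had a log2 ratio of −1.85, and Tmem140 had 173 UMIs in Ctrl and 73 in KD (−1.64). These are the lowest among genes with at least 200 UMIs that were not far higher in another cell type. That limit left out Ifitm1 (2135 and 484 UMIs, −2.53) and Upp1 (418 and 100 UMIs, −2.46), and Ch25h (−1.77) had too few UMIs. Tmem140 had 0.0022 in cells without a marker UMI and −0.62 in inflammatory cells. Il10, the anti-inflammatory cytokine, had 293 UMIs in 73 Ctrl cells and 142 in 55 KD cells (−1.44, −1.74 to −1.14), beside −0.77 in cells without a marker UMI, 0.06 in inflammatory cells and 0.83 in T cells. Tgm2, a transglutaminase, had 1786 and 923 UMIs (−1.34). Socs1, the feedback inhibitor of interferon signaling, had 333 and 178 UMIs (−1.30). Cdk14 (−1.53), the hexokinase gene Hk3 (−1.27) and the dynein light chain gene Dynll2 (−1.25) were also among the lowest, with Nos2 (−1.57), whose product makes nitric oxide and which the rule limited. Most of these genes were low in cells without a marker UMI too, with Nos2 at −2.06, Socs1 at −1.46, Hk3 at −1.39, Tgm2 at −1.19 and Cdk14 at −1.07 there, and Dynll2 at −0.67.

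**Figure D2:**
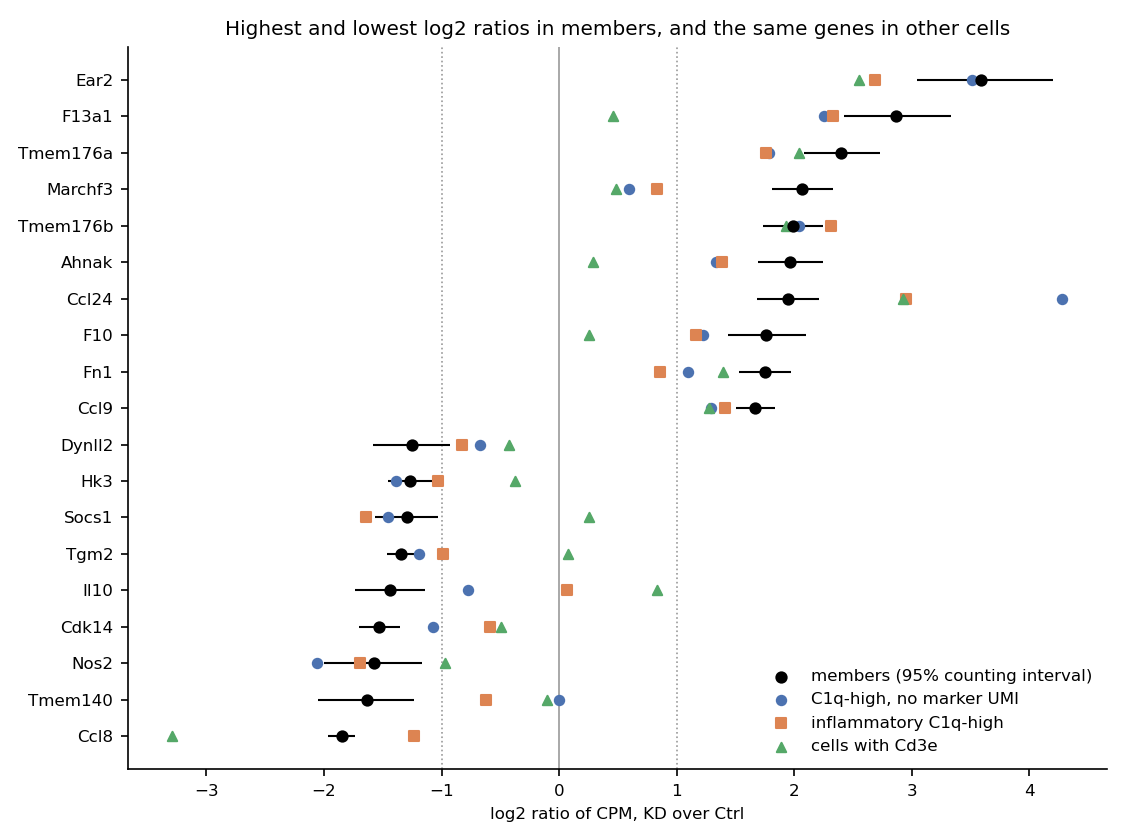
Log2 ratio of CPM, KD over Ctrl, for the 10 highest and 9 of the 10 lowest genes of the members, with 95% intervals for the members (counting error only) and the same ratio in C1q-high cells without a marker UMI, inflammatory C1q-high cells and cells with a Cd3e UMI. Ear2 heads the plot at 3.59 and Ccl8 closes it at −1.85.

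Part of these differences sat beside the change in the marker mix. When the 7 marker combinations of KD were weighted to their shares in Ctrl, 62 genes were higher and 51 lower, of which 43 and 35 were among the 70 and 65. Ccl8 then had −0.34, Mmp12 0.20 and Mgl2 −0.08. These 3 genes define the combinations, so the weighting itself drew their ratios towards 0. Fn1 moved from 1.75 to 0.96 and Ms4a7, a membrane protein gene of macrophages, from −1.17 to −0.39. By contrast, F13a1 (2.98), Ccl24 (2.26), Marchf3 (1.84), Il10 (−1.71) and Tgm2 (−1.17) kept their calls. Il10 was uneven among the combinations, with −2.79 in members with Ccl8 alone (112 and 6 UMIs), −1.28 in members with Mgl2 alone and 0.16 in members with Mmp12 alone.

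The interferon-induced genes were lower in KD members as a group. Interferons bind receptors that activate STAT proteins, and type I interferon and interferon gamma induce overlapping sets of antiviral and antigen-processing genes. Of 15 genes of the type I response, 14 were tested. All 14 had a log2 ratio below 0, 13 with the whole interval below 0 (17.6% over all genes), and 2 were past 2-fold lower (0.925%), with a median of −0.72 beside −0.018 over all genes. Isg15, a ubiquitin-like modifier, had 867 UMIs in Ctrl and 506 in KD (−1.17, −1.33 to −1.01). Its level in Ctrl members was under 0.2 times that in another cell type, the limit that left out Ifitm1 and Upp1 above. Ifi44 had 120 and 75 UMIs (−1.07, but 0.61 with cells thinned before the rule), Ifi27l2a 1995 and 1400 (−0.90), and Bst2, which encodes tetherin, 2036 and 1732 (−0.63). Rsad2, which encodes viperin (−0.39), and Ifi204, a DNA sensor gene (−0.12), had the smallest differences. Summed over the list, Ctrl members had 2159 CPM and KD members 1326 CPM.

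Of 17 genes of the interferon gamma response, 16 were tested. All 16 intervals lay below 0, against 17.6% over all genes. Of these, 3 genes were past 2-fold lower, and the median was −0.75. Beside Socs1, these were the GTPase genes Igtp, with 425 and 273 UMIs (−1.03), and Gbp4, with 513 and 333 UMIs (−1.02). Iigp1, another GTPase of the defense against intracellular parasites, had 1604 and 1247 UMIs (−0.76), and the immunoproteasome subunit Psmb9 had 1924 and 1794 (−0.49). Tap1, the peptide transporter (−0.37), and Gbp7 (−0.24) differed least. Summed over the list, Ctrl members had 3314 CPM and KD members 2119 CPM.

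Both lists were also lower in the other C1q-high cells. The type I median was −0.51 in cells without a marker UMI, −0.62 in inflammatory cells and −0.05 in T cells, where 7 of the 14 genes lay below 0. The interferon gamma medians were −0.59, −0.79 and −0.23. With the marker combinations weighted to Ctrl, the medians in the members were −0.59 and −0.52, and 13 of 14 and 16 of 16 genes lay below 0. The type I median was below 0 in members with each marker alone, at −0.85 (Mmp12 alone), −0.27 (Mgl2 alone) and −0.44 (Ccl8 alone). The dendritic cell list, which shares Bst2 with the type I list, had 2 of 12 genes without UMIs in each library and was at 794 CPM in Ctrl and 560 CPM in KD. Its gene Xcr1 had 69 and 3 UMIs, and Flt3 was 0 by rule. Without cells with a UMI of a dendritic, endothelial or neutrophil marker, a condition added after seeing the data, 9 of 9 type I genes still tested and 16 of 16 interferon gamma genes lay below 0.

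The sequences upstream of 3 of these genes and of Ccl8 are shown to let the interferon-response letters be seen. They cover 250 bases before the transcription start, 5′ to 3′ on the gene's strand, from RefSeq for build GRCm38.p6, which is older than the build named for the counts. Capitals mark matches, on either strand, of GAAA repeated after any 2 bases, the core of the element bound by interferon regulatory factors, or of TTCNNNGAA, the element bound by STAT dimers. Isg15 (chr4:156200819-156201068, minus strand) held 3 overlapping matches of the first motif, Igtp (chr11:58199306-58199555, plus strand) 1 of each, Cxcl10 (chr5:92348890-92349139, minus strand) 1 of the first, and Ccl8 (chr11:82114935-82115184, plus strand) none of either.
Isg15: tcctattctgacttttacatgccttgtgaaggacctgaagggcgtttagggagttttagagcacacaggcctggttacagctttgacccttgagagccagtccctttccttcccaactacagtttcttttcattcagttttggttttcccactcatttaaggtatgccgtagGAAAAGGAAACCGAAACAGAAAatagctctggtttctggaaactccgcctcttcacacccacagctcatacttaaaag
Igtp: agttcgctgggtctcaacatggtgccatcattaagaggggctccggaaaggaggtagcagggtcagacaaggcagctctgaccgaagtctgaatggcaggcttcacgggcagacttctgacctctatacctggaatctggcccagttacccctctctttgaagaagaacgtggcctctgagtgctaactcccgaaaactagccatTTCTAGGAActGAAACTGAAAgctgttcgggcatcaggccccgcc
Cxcl10: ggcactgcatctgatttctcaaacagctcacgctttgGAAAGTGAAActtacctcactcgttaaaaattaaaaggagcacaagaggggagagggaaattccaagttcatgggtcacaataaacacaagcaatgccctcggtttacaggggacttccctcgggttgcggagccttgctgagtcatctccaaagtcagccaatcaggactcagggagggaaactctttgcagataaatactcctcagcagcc
Ccl8: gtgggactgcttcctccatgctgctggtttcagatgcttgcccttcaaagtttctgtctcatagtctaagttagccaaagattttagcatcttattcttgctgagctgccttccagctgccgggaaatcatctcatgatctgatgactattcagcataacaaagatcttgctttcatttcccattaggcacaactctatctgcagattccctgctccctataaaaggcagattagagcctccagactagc
Over 32851 such windows in the table, 2.98% held the first motif and 7.02% the second. A match is a run of letters and not a measured binding site. Shares over the interferon lists are not given, because fewer than 80% of their tested genes had a window.

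Genes of alternative activation, the program that IL-4 and IL-13 induce in macrophages, were higher in KD members. Of 16 genes, 8 were tested, 4 were past 2-fold higher and none lower, and the median log2 ratio was 0.94. Over all genes tested in the members, 0.996% were higher and 0.925% lower, with a median of −0.018. The counts of the member lists in the paragraphs below stand beside the same shares. Chil3, which encodes the chitinase-like protein Ym1, had 9 UMIs in Ctrl and 140 in KD (3.57, 2.60 to 4.73). Arg1, the arginase that competes with nitric oxide synthase for arginine, had 509 UMIs in 102 Ctrl cells and 1895 in 171 KD cells (log2 interval 1.36 to 1.65). The mannose receptor gene Mrc1 had 416 and 1145 UMIs (1.07), and Ccl24 is given above. The other tested genes went both ways. Mgl2 (0.70) was used by the rule, its near copy Clec10a had 94 and 217 UMIs (0.81), and the scavenger receptor gene Stab1 (−0.60) and the IL-4 receptor gene Il4ra (−0.54) were below 0. Retnla, another IL-4 target, had 0 UMIs in Ctrl and 33 in KD, too few to enter the test and named after its values were seen. Cd163 had 1 and 0 UMIs.

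This group was likewise high outside the members. The median of the 8 genes was 1.09 in cells without a marker UMI (7 genes with counts), 0.84 in inflammatory cells and 1.78 in T cells. In T cells all 8 genes were above 0, with a summed level of 56.7 CPM in Ctrl and 163 CPM in KD, against 695 and 1315 CPM in the members. The share of all genes above 0 in T cells is not given here. Chil3 and F13a1 are on the monocyte list as well, and the summed level of that list was 1533 CPM in Ctrl and 1454 CPM in KD. Ly6c2, the defining gene of classical monocytes, had 137 and 138 UMIs. How far free RNA entered these ratios was not tested.

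The called genes of arginine and tryptophan metabolism lay on both sides. Of 8 tested genes of 11, Arg1 was past 2-fold higher, and Nos2 and Ass1, which regenerates arginine for nitric oxide synthesis, were past 2-fold lower. Nos2 was limited by the rule. Ass1 had 368 UMIs in Ctrl and 241 in KD, a level of 109 and 54.4 CPM (log2 interval −1.24 to −0.76). Its ratio of −1.003 lay close to the 2-fold limit, and it was −1.18 with the marker combinations weighted to Ctrl. The arginine transporter gene Slc7a2 had 211 and 513 UMIs (0.89). The median of the list was −0.30. Acod1, which makes itaconate, had 338 and 249 UMIs (−0.83).

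The chemokine genes differed in both directions. Of 23 CC and CXC chemokine genes, 17 were tested, 3 were past 2-fold higher and 2 lower, with a median of −0.12. Beside Ccl24 and Ccl9, Ccl6 was higher, with 1822 UMIs in Ctrl and 4856 in KD (1.02, 0.94 to 1.10), and Pf4, platelet factor 4, reached 1.00 without passing the limit. Beside Ccl8, which was used by the rule, Cxcl10 was lower, with 2303 and 1440 UMIs (−1.07, −1.17 to −0.97). Cxcl10 and Cxcl9 attract T cells through CXCR3 and are interferon-induced. Cxcl9 had 5649 UMIs in Ctrl and 4005 in KD (−0.89, −0.95 to −0.83), and −0.41 with the marker combinations weighted to Ctrl. The monocyte chemokine gene Ccl2 had 1226 and 1920 UMIs (0.25), and Cxcl2, for neutrophils, 1789 and 2159 (−0.12). Ccl17, an IL-4-induced chemokine gene, had 0 and 78 UMIs, below the filter, and was named after its values were seen. Of 5 tested chemokine receptor genes, none was past 2-fold, and Ccr2, the receptor for CCL2, had 818 and 1659 UMIs (0.63).

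Matrix genes were higher where they were called. Of 12 tested of 19, Fn1 and Mmp12 were past 2-fold higher and none lower (median 0.18). Mmp12 was used by the rule, and Fn1 had 0.96 with the marker combinations weighted to Ctrl. Mmp13, collagenase 3, had 458 and 546 UMIs (−0.14), and Tgfbi, an extracellular adhesion protein gene, had 2344 and 3243 (0.08). Below the limit, the intervals of Timp2, an inhibitor of matrix proteases (0.76), Plaur, the urokinase receptor gene (0.46), and Thbs1, thrombospondin 1 (0.46), lay above 0. Summed over the list, the level was 1900.02 CPM in Ctrl and 2553 CPM in KD.

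Uptake receptors were mostly close between the libraries. Of 17 tested genes of 21 for phagocytosis and the clearance of dying cells, Mrc1 alone was past 2-fold higher, and the median was −0.06. Mertk, a receptor for phosphatidylserine-bridging proteins on dying cells, had 681 and 1140 UMIs (0.35, 0.21 to 0.49). Clec7a, the beta-glucan receptor dectin-1, had 1012 and 1944 UMIs (0.55). Fcgr4, an activating receptor for IgG, had 2851 and 2084 UMIs (−0.84, −0.93 to −0.76), and its signaling chain Fcer1g had 16163 and 16555 (−0.36). With the marker combinations weighted to Ctrl, Fcgr4 had −0.37 and Mertk 0.60.

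Lipid, lysosome and antigen-presentation genes changed little as groups. Of 17 tested lipid genes, Pltp, the phospholipid transfer protein, was past 2-fold higher (95 and 301 UMIs, 1.27) and Ch25h, which makes 25-hydroxycholesterol and is interferon-induced, past 2-fold lower (101 and 39 UMIs, −1.77). Apoe had 9745 and 21508 UMIs (0.75), Lgals3, galectin-3, had 0.07, and Spp1, osteopontin, had −0.80. None of 17 tested lysosomal genes was past 2-fold, with Ctsl at 0.41, Ctsc at −0.53 and a median of 0.0098. Of 10 tested genes of MHC class II presentation, H2-DMb2, a chain of the peptide-loading factor, was past 2-fold higher (80 and 235 UMIs, 1.16). The class II chains H2-Aa (0.29), H2-Eb1 (0.14) and Cd74 (0.18) were close to 0.

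The complement list held no gene past 2-fold among 10 tested. C1qa (0.01), C1qb (−0.10) and C1qc (−0.26) were used by the rule. C3ar1, the receptor for C3a, had 378 and 710 UMIs (0.52), and C4b had 105 and 99 (−0.48). Of the 14 macrophage identity genes, Ms4a7 alone was past 2-fold lower (497 and 290 UMIs), and Lyz2, lysozyme, had 14571 and 30030 UMIs (0.65).

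**Figure D3:**
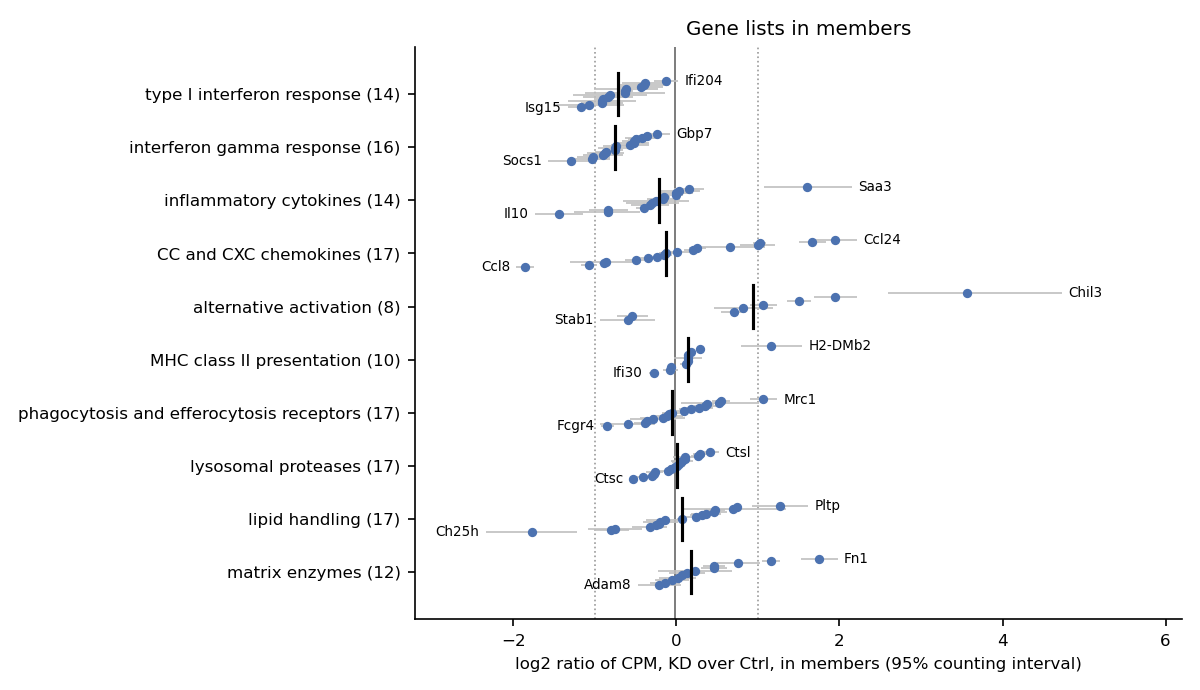
Log2 ratio of CPM, KD over Ctrl, in the members for each tested gene of 10 lists (points), with the median of each list (bar) and the 2-fold limits. Every tested gene of the interferon lists lies below 0, with medians of −0.72 and −0.75, and alternative activation has a median of 0.94.

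Inflammatory cytokine genes had a median of −0.21 over 14 tested of 18, with Il10 past 2-fold lower and Saa3, an acute-phase protein gene of a family of near copies, past 2-fold higher (38 UMIs in 8 Ctrl cells and 151 in 18 KD cells, 1.60, but −0.16 with cells thinned before the rule). Il1b had 2680 and 3160 UMIs (−0.15) and Nampt −0.40. Of 10 tested growth factor genes, only Il10 passed (median −0.34). No gene passed among 14 costimulation and checkpoint ligands, where Pdcd1lg2, which encodes PD-L2, had −0.83 and Cd83 had 0.51. None passed among 18 genes of glycolysis and hypoxia, 10 of iron and haem, 20 macrophage transcription factors or 15 dissociation stress genes, whose medians were −0.15, 0.0064, 0.06 and −0.12.

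SLAM family genes had a median of −0.32 over 11 tested of 13, and none was past 2-fold. Ly9, the gene of SLAMF3, had 119 UMIs in Ctrl members and 117 in KD members (−0.42, −0.80 to −0.04). Since the hairpin was in the tumor cells, this value does not check the knockdown, and its silencing in the tumor cells was not measured here. Cd84, a self-binding receptor, had 0.58, and Slamf8 had −0.51. Of the lists that the study took from the literature, its M1-like list had Saa3 past 2-fold higher among 6 genes (median 0.37). Its M2-like list had Il10 lower among 6 tested of 8 (−0.29), and its phagocytosis list had Mrc1 higher among 3 of 4 (0.35).

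Transcripts of other cell types in the members differed between the libraries. The neutrophil list had 9 of 10 genes with UMIs in each library and was at 90.9 CPM in Ctrl and 181 CPM in KD, while Ly6g, its defining gene, was 0 in both. S100a8 had 42 and 226 UMIs (2.04) and S100a9 73 and 284 (1.57). In T cells the same list was at 419 CPM in Ctrl and 2881 CPM in KD. All 8 endothelial genes had UMIs, at 627 and 778 CPM, with Stab2 at 2 and 36 UMIs and Clec4g at 1 and 32. The hepatocyte list was at 94.2 and 204 CPM, of which Trf, transferrin, made up 86.5 and 199.9 CPM. The Kupffer list was at 154 and 197 CPM and the T and NK cell list at 78.5 and 54.6 CPM. The part of these transcripts in the ratios above was not tested.

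Against the C1q-high cells that met every condition except a marker UMI, the members differed in few other genes. Of 6723 genes, 12 (0.178%) were past 2-fold higher in both libraries and 7 (0.104%) past 2-fold lower in both. The 12 included the 3 marker genes, which the rule set to 0 in the other cells. Of the remaining 9, the tetraspanin gene Cd63 had log2 ratios of 2.02 in Ctrl and 1.66 in KD. Mmp13 stood at 136 CPM in the members and 48.0 CPM in the other cells in Ctrl, and at 123 and 21.1 CPM in KD. The adhesion molecule gene Vcam1 had ratios of 2.16 and 1.21, and Slc7a2 1.65 and 1.21. The lectin gene Clec4b1 (1.36 and 1.54) and Cd200r1, an inhibitory receptor gene (1.10 and 1.26), were also higher. Ly6c2 was lower in the members in both libraries (−1.86 and −1.90), as were Plac8 (−1.21 and −1.64) and the lectin gene Clec4e (−1.54 and −1.46). Ly6c2 and Plac8 are on the monocyte list, and Prtn3, Ifitm6, Plcb1 and S100a4 completed the 7. These cells were separated by their own counts and had fewer UMIs (medians 5085 in Ctrl and 6881 in KD), so the values describe the split and do not test it.

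Against inflammatory C1q-high cells, the members had more genes lower than higher. Of 6303 genes, 76 (1.21%) were past 2-fold lower in both libraries and 16 (0.254%) higher. Nos2, Il1a, Ptgs2 and Inhba were set by the rule. Beyond them, Il1b had log2 ratios of −2.09 in Ctrl and −2.31 in KD, Cxcl2 −2.13 and −2.78, and Clec4e −2.77 and −2.75. Clec4d, Olr1 and Mir155hg, the host transcript of miR-155, were also lower. Of 14 inflammatory cytokine genes, 9 were lower, as were 6 of 17 chemokine genes. The 16 higher genes were led by Mgl2 (1.70 and 1.90), a marker of the rule that the inflammatory cells were free to have or lack. Lyz1 (1.84 and 1.29), Clec4b1 (1.24 and 1.48) and Plxdc2 (1.18 and 1.07) followed it. Clec4b1 was thus higher in the members than in both neighbouring sets.

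**Figure D4:**
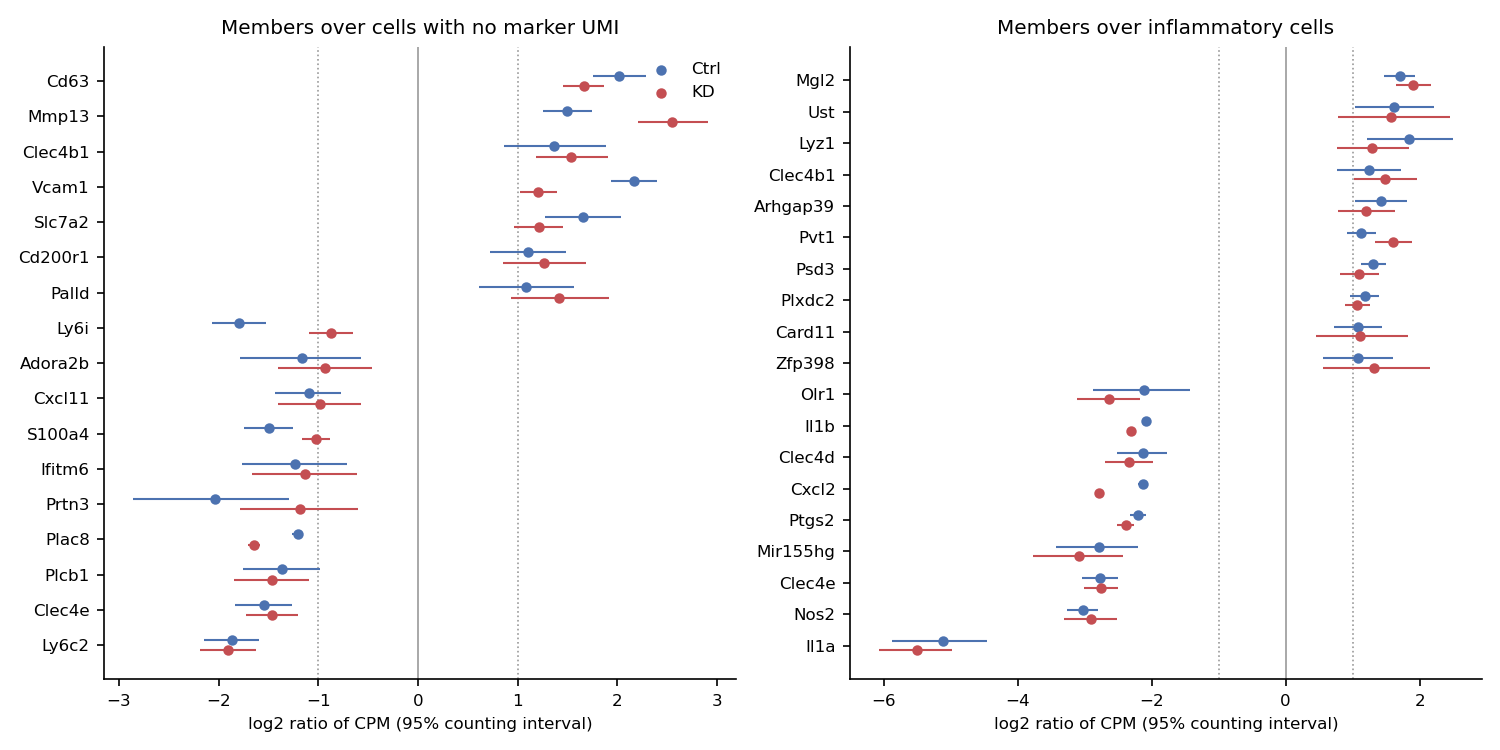
Log2 ratio of CPM, members over C1q-high cells without a marker UMI and members over inflammatory C1q-high cells, in Ctrl and KD, with 95% intervals (counting error only). Both libraries lie on the same side of 0 for each gene shown, as for Cd63 (2.02 and 1.66) and Ly6c2 (−1.86 and −1.90).

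The members varied among themselves by marker. Members with a single detected marker were compared with those with either other marker alone, over 3348 genes. The split set a subset's own marker above 0 and the other marker genes to 0, and the counts below include these genes. Among Mmp12-only cells (50 in Ctrl and 102 in KD), 12 genes (0.358%) were higher in both libraries and 10 (0.299%) lower. Fn1 had log2 ratios of 2.98 in Ctrl and 1.85 in KD, Arg1 1.79 and 1.17, Mmp13 1.27 and 1.34 and the metalloprotease gene Adam8 1.07 and 1.42. The hypoxia-induced gene Ndrg1 (164 against 58.2 CPM in KD), the tetraspanin gene Cd9 (1.58 and 1.06) and the endotoxin co-receptor gene Cd14 (1.08 and 1.02) were higher as well. Of 11 tested matrix genes, 4 were higher, Mmp12 itself among them. Ccl7 (−2.43 and −1.60), Vcam1 (−2.04 and −1.67) and Ms4a7 (−2.95 and −1.16) were lower.

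Ccl8-only cells (202 and 50) showed a different set. Here 13 genes (0.388%) were higher in both libraries and 8 (0.239%) lower. Vcam1 had 2.00 and 2.45, Ms4a7 2.86 and 1.82, Adgre1 1.35 and 1.14 and the adhesion gene Cadm1 1.55 and 1.47. Ccl24 (2.70 and 1.31) and the lysosomal protease gene Ctsd (1.24 and 1.35) were also higher. Fn1 (−3.19 and −1.42), Ndrg1 (−1.39 and −1.20) and Il1b (−1.01 and −1.73) were lower. Because each subset was set against the other two pooled, a gene high in 1 subset reads as low elsewhere, so levels are given as well. Vcam1 stood at 63.8 CPM (Mmp12 only), 98.5 CPM (Mgl2 only) and 350 CPM (Ccl8 only) in Ctrl, and at 80.2, 125 and 590.0 CPM in KD. Ms4a7 stood at 25.5, 44.1 and 279 CPM in Ctrl and at 37.4, 52.1 and 165 CPM in KD. Ccl24 in KD stood at 258 CPM in Ccl8-only cells and at 19.5 CPM in Mgl2-only cells. Ccl8-only and Mmp12-only cells pooled were at 248 CPM there, so these 2 subsets were close in Ccl24 in KD. Fn1 stood at 201 CPM in Mmp12-only and 52.9 CPM in Mgl2-only cells in Ctrl and at 259 and 78.2 CPM in KD, and Ccl8-only cells held 14 and 26 Fn1 UMIs. In both libraries Vcam1 and Ms4a7 were therefore high in Ccl8-only cells, with Mgl2-only cells nearer to Mmp12-only cells, and Fn1 was high in Mmp12-only cells.

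Mgl2-only cells (86 and 139) were marked more by low than by high genes. Only Mgl2 itself (1 gene, 0.0299%) was higher in both libraries, and 9 genes (0.269%) were lower. Mgl2 was set above 0 by the split, and Ccl8 and Mmp12, among the lower genes, were set to 0 by it. Ccl24 had −4.55 in Ctrl (2 UMIs, interval −7.62 to −2.67) and −3.67 in KD, Ccl5, a T cell-attracting chemokine gene, −2.55 and −1.27, and the fatty acid-binding protein gene Fabp5 −1.83 and −1.14. The cholesterol exporter gene Abca1 (−1.16 and −1.03) and Ctsd (−1.64 and −1.01) were lower too. Members with a single Mgl2 UMI are included, and the Ctrl and KD sets had medians of 7377 and 8733 UMIs.

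**Figure D5:**
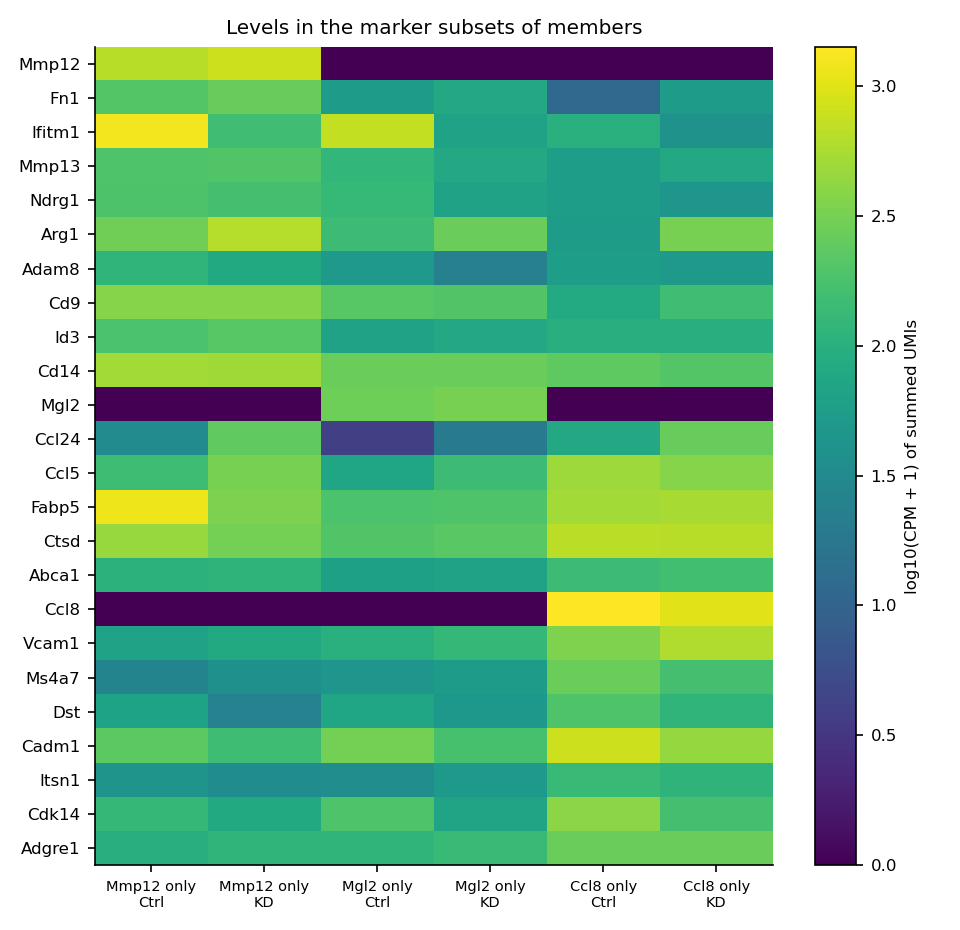
Levels of 24 genes in members with Mmp12 alone, Mgl2 alone or Ccl8 alone, in Ctrl and KD, as log10(CPM + 1) in color. Fn1 and Arg1 are higher in the Mmp12 columns, Vcam1, Ms4a7 and Adgre1 in the Ccl8 columns, and Ccl24 is lower in the Mgl2 columns.

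The KD over Ctrl ratios were also taken within these subsets, whose makeup depends on depth because a marker can be missed. Ccl8-only cells had medians of 5716 UMIs in Ctrl and 9463.5 in KD, and Mmp12-only cells 5806.5 and 7281.5. Ccl24 had 2.92 in Mmp12-only cells (10 and 181 UMIs), 2.73 in Mgl2-only cells (2 and 24 UMIs, interval 0.72 to 5.86) and 1.72 in Ccl8-only cells (100 and 122 UMIs). F13a1 had 2.22 (7 and 78 UMIs, interval 1.11 to 3.59), 3.19 (9 and 148 UMIs, 2.22 to 4.34) and 2.84 (20 and 53 UMIs, 2.07 to 3.66). Mrc1 had 1.58, 1.83 and 1.03 and Socs1 −1.18, −0.88 and −0.88. Apoe was higher in Mgl2-only (1.39) and Ccl8-only cells (1.33) and had 0.53 in Mmp12-only cells. Fn1 had 2.33 in Ccl8-only cells (14 and 26 UMIs) and 0.37 in Mmp12-only cells, where its level was highest. Ms4a7 had 0.55, 0.24 and −0.76, and none of these was past the 2-fold limit that it passed in the members as a whole.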

How the data were processed

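The authors deposited UMI counts per gene and cell barcode, not normalized, for 2 libraries made with the 10x Genomics 3' kit. Submitters' processing notes name Cell Ranger 7.1.0, Seurat 5.1.0, R 4.4.1 and build GRCm39. How reads shared by near copies (Ear2, Chil3, Saa3, H2-DMb2, Mgl2 and Clec10a, Ccl6 and Ccl9) were assigned is not given in the sources used here. Every deposited barcode held at least 500 UMIs.

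Cells with at least 200 genes and at most 10% mitochondrial UMIs, 30000 UMIs and 6000 genes were kept (19999 of 21359, within 3 cells of the number stated in the study's methods). No doublet caller was run; those limits and the lineage conditions were the only treatment. The members and gene lists were chosen with earlier results of these data known. Genes were named from the rule, from the extremes and highest levels of each list, and as the 10 highest and 10 lowest ratios among genes with at least 200 UMIs, without genes whose level in the members was under 0.2 times that in another cell type. Of the 10 lowest, 1 is not reported here.

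UMIs were summed per library, and each log2 ratio of CPM has an interval from the binomial distribution given the gene's total. Shares have Clopper-Pearson intervals, and differences of shares combine them. All cover counting error only, and a count of 0 allows up to 3 counts. With 1 library per group no p-value was computed. Python 3.11.15, numpy 2.4.6, scipy 1.17.1, pandas 2.3.3 and matplotlib 3.10.9 were used, and edgeR 4.0.16 in R 4.3.3 for TMM factors only. Ratios and thinning were tested on simulated data. Alternatives changed the C1q, marker, quality and UMI limits, the lineage conditions, the depth, the scaling and the weighting.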

Additional observations from a re-analysis of the deposited data

How the results depend on the processing

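The difference in member share was above 0 under the alternatives tried except 1, but its size varied. With cells thinned to 1500 UMIs it was 2.96 points (0.347 to 5.58), below the main interval of 3.88 to 9.02. Over all filtered cells it was 0.0777 points, with an interval on both sides of 0 (−0.514 to 0.668). It reversed to −3.58 points without cells with a dendritic, endothelial or neutrophil marker UMI when the members left were set over all C1q-high cells, and was 8.13 points over the C1q-high cells left by that exclusion. The counts of 70 higher and 65 lower genes stayed within 1.5 times under the other C1q, marker, quality and lineage limits, TMM (81 and 52) or median of ratios (81 and 53) factors, the mean of per-cell CPM (79 and 90), members with an Mgl2 UMI (65 and 51) and weighted marker combinations (62 and 51). They were 32 and 32 with thinned cells (2102 genes tested), 23 and 24 for genes with 500 UMIs and 1104 and 1346 for genes with 1 UMI in each library, where fewer or more genes were tested. Without cells with a dendritic, endothelial or neutrophil marker UMI, an alternative chosen after seeing the data that left 258 Ctrl and 137 KD members, they were 40 and 56. The genes called were less stable than these counts. Of the 70 higher and 65 lower genes, 69 and 61 were called again under the other quality limits. Under the stricter lineage conditions 47 and 30 were, in members with an Mgl2 UMI 41 and 29, and with thinned cells 17 and 16. At 500 UMIs in each library, 6 genes were higher and 4 lower than in cells without a marker UMI, 4 higher and 44 lower than in inflammatory cells, and the subsets had 1 higher and 0 lower (Mmp12 only), 0 and 3 (Mgl2 only) and 2 and 1 (Ccl8 only). With at least 2 UMIs of the 1 marker, Mgl2-only cells had 2 higher and Ccl8-only cells 17 lower genes. With thinned cells, Ifi44 (0.61), Ighm (0.22) and Saa3 (−0.16) reversed; the cause was not tested. The median ratio ranged from −0.80 to −0.57 for the type I interferon list, from −0.86 to −0.52 for the interferon gamma list and from 0.69 to 1.37 for alternative activation. With cells thinned, 4 of the 5 type I genes still tested lay below 0. TMM shifted every ratio by 0.067. Of 3547 values of 296 genes under the alternatives, 2819 stayed within their interval, 725 moved and 3 reversed. Reversal was counted only for genes past 2-fold in the main result. Changes of sign in smaller ratios are among the other values. With the marker combinations weighted to Ctrl, for example, Pdgfc went from −0.80 to 0.36 and Adgre1 from −0.40 to 0.15. No paired analysis was possible because each group is 1 library. With 1 library per group, depth limits only the counting error, and no value here measures the spread between mice.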

Other observations

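The C1q-high cells with Ltc4s or Clec4f, which were kept out of the members, differed from them in gene content. Of 4809 genes tested against the Ltc4s cells (28 in Ctrl and 189 in KD), 19 were past 2-fold higher in the members in both libraries and 14 lower. Of 4731 genes tested against the Clec4f cells (21 and 66), 257 were higher and 182 lower. Against cycling C1q-high cells (279 and 74), 11 of 5927 genes were higher and 135 lower. The Ltc4s cells had interferon gamma genes lower in KD, with 10 of 16 past 2-fold and a median of −1.29, beside −0.75 in the members. The Ctrl Ltc4s cells held only 252087 UMIs, and genes were filtered by their UMIs in the members, so ratios there rest on fewer UMIs. Of 17 chemokine genes, 5 were past 2-fold higher and 7 lower in the same cells. The share over all genes in these cells is not given here. Whether these medians differ beyond the spread between mice was not tested.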
